A study of Mus musculus with 4 samples.

Results

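The genes described here encode the proteins that shorten the poly(A) tails of maternal mRNAs, together with adaptors that bring those enzymes to their targets. They were chosen by name, as the 10 mouse genes Cnot1, Cnot6, Cnot6l, Cnot7, Cnot8, Pan2, Pan3, Parn, Btg4 and Zfp36l2. All 10 were found among the 17374 genes of the transcript table, where they hold 53 of the 45505 listed transcripts. The oocytes were at the germinal vesicle (GV) stage, the stage of arrest in meiotic prophase, and came from unprimed F1 hybrid females of a C57/Bl6 by DBA2J cross at postnatal day 16. Irradiated oocytes received 5 Gy of γ-rays from a Cesium-137 source in M2 medium with milrinone and were collected 24 h afterwards, while control oocytes were not irradiated. Both conditions were cultured in MEM with BSA and milrinone, a phosphodiesterase inhibitor that prevents meiotic resumption, so the mRNAs were measured in arrested oocytes and not during maturation. Each condition has 2 libraries of pooled oocytes from independent experiments, and the study's methods give 59 oocytes for each condition.

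The growing oocyte stores mRNAs that it will use after transcription has stopped, and many are later removed during meiotic maturation and the maternal-to-zygotic transition. Removal usually begins with deadenylation, the trimming of the poly(A) tail, after which the mRNA loses its cap and is degraded. The CCR4-NOT complex carries a scaffold, CNOT1, and a pair of nuclease subunits, one of the CAF1 type (CNOT7 or CNOT8) and one of the CCR4 type (CNOT6 or CNOT6L). PAN2 with its partner PAN3 forms a second deadenylase, PARN acts on its own, and BTG4 and ZFP36L2 are adaptors of CCR4-NOT known for their part in oocyte maturation and fertility. The mRNA was isolated on oligo(dT), so a count reflects both the amount of an mRNA and its capture through the tail, and tail length itself was not measured.

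The genes lie on 7 chromosomes of the GRCm38.p6 assembly. Cnot1 spans chromosome 8 from 95718931 to 95808113 and Cnot7 spans chromosome 8 from 40492538 to 40515847. Cnot6 lies on chromosome 11 from 49671497 to 49713401 and Cnot8 on chromosome 11 from 58092794 to 58118597. Cnot6l lies on chromosome 5 from 96070333 to 96164198 and Pan3 on chromosome 5 from 147426208 to 147548501. Pan2 lies on chromosome 10 from 128303333 to 128321358, Parn on chromosome 16 from 13537964 to 13668198, Btg4 on chromosome 9 from 51102147 to 51119924, and Zfp36l2 on chromosome 17 from 84183924 to 84187947. Promoter windows of 300 bases, 250 before and 50 after a transcription start, were given by RefSeq for 7 of the 10 genes, and Cnot1, Cnot7 and Zfp36l2 had none in the table used. The windows of 3 genes are printed from 5′ to 3′, each CpG dinucleotide in capitals: Btg4 has the highest level of the 10, Pan3 is the gene that passed the main test of isoform usage, and Cnot6 has the lowest level among the genes with a window. They cover chr9:51115751-51116050 on the plus strand for Btg4, chr5:147429906-147430205 on the plus strand for Pan3, and chr11:49712673-49712972 on the minus strand for Cnot6.
Btg4: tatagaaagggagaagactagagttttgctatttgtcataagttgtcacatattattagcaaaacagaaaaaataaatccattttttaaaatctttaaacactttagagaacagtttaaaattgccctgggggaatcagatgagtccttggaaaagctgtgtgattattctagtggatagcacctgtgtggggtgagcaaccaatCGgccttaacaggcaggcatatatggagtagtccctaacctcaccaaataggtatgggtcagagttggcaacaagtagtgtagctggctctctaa
Pan3: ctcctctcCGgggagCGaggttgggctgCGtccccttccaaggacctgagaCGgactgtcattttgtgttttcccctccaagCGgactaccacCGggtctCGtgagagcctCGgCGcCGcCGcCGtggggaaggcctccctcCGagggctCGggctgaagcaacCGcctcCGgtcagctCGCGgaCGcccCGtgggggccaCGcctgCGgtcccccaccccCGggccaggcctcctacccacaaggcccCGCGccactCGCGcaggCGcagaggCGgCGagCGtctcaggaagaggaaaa
Cnot6: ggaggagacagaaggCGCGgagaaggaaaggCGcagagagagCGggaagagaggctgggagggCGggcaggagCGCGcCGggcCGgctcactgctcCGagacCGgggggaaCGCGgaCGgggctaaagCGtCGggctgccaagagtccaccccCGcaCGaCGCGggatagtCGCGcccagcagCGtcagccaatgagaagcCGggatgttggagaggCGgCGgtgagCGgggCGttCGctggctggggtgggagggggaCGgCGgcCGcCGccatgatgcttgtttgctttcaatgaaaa

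The Btg4 window held 1 CpG and 39.0% G and C, while the Pan3 window held 31 CpG and 70.7% and the Cnot6 window 33 CpG and 68.7%. Across all 32851 mouse windows of the same table the median was 7 CpG and 52.7%, and 14.1% of windows held no more CpG than that of Btg4. The letters TATAAA, searched on both strands, occurred in none of the 3 windows and in 13.6% of all windows. The letters CCAAT, on both strands, occurred once each in the Btg4 window, 50 bases before the start, and in the Cnot6 window, 61 bases before the start, and in 37.4% of all windows. The other windows of the set, for Cnot6l, Cnot8, Pan2 and Parn, held from 3 to 49 CpG.

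Estimated read counts, which share a read among the transcripts it matches, summed to between 33349466 and 37232818 per library. The 12 oocyte markers were all listed, with summed levels of 48328 to 55801 TPM, a unit scaled for transcript length and library total. Of 12 granulosa and cumulus markers 8 were listed, and their sum ran from 17.2 to 22.6 TPM. The other 4, Foxl2, Amh, Fst and Amhr2, were looked for but not listed, so they have no level here. Irradiated library 2 stood apart from the others. Its log2 CPM, counts scaled for library size with TMM factors, correlated across genes at 0.984 to 0.987 with the other 3 libraries, which correlated with each other at 0.996, and it lay farthest from the mean of the other 3 for 55% of 12569 genes. Of the 10 deadenylation genes it was farthest for 7. In TPM it had the highest sum of granulosa and cumulus markers (22.6 against 17.2 to 19.4 TPM). The sums of the 2 immune markers listed (3.61 against 1.58 to 1.88 TPM) and the 2 blood and vessel markers listed (5.81 against 3.85 to 5.03 TPM) were also highest there. TPM is not scaled with TMM factors, which were 1.19 for irradiated library 2 and 0.923 to 0.975 for the others. Cnot1, for example, was highest there in TPM (8.16) but lowest in CPM (38.4). Whether the sums keep their order with that scaling was not computed. Of the granulosa and cumulus markers, Fshr, Cyp19a1, Hsd17b1 and Nr5a2 were highest there, and Inhba, Kitl and Wnt4 lowest. The oocyte marker sum of irradiated library 2 was the lowest, with 6 of the 12 lowest there and 4, Zp1, Zp3, Nobox and Zar1, highest there. The part of these differences in the results was not tested.

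The 10 genes differed widely in level. TPM, which divides by transcript length, allows levels of different genes to be set side by side, and in the controls Btg4 stood at 3034 ± 201 TPM (SD, n = 2). Among all genes it ranked 46 and 50 by TPM in the control libraries. Cnot7, a CAF1-type nuclease, followed at 119 ± 10.9 TPM, which is 25.5-fold less than Btg4. Pan3 stood at 59.9 ± 0.106 TPM, Cnot8 at 41.6 ± 3.26 TPM and Cnot6l at 11.1 ± 0.537 TPM. The scaffold Cnot1, at 6.33 ± 0.156 TPM, lay well below Cnot7. Lower still were Parn at 5.38 ± 0.0566 TPM, Pan2 at 3.67 ± 0.240 TPM, Cnot6 at 1.94 ± 0.0283 TPM and Zfp36l2 at 0.515 ± 0.0354 TPM. Zfp36l2 rested on 36 to 45 counts per library, the fewest of the 10.

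**Figure D1:**
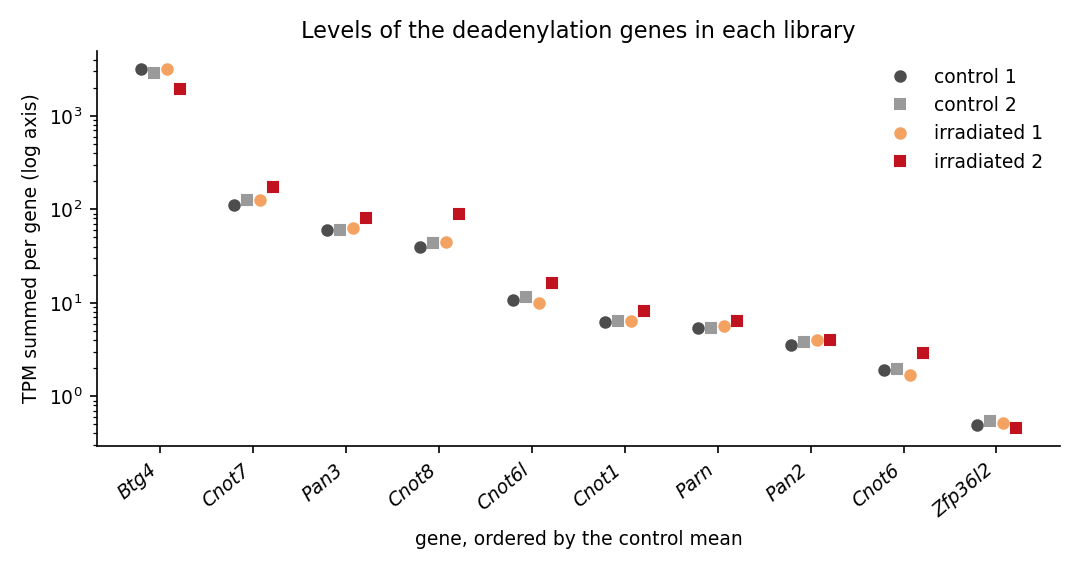
TPM summed per gene, on a log axis, for each of the 10 genes in the 4 libraries; each point is 1 library. Btg4 lies between 1918 and 3198 TPM and Zfp36l2 between 0.46 and 0.54 TPM, and most neighbouring genes keep apart in every library.

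The order of the genes was the same in both controls and irradiated library 1. In irradiated library 2 Cnot8, at 88.6 TPM, passed Pan3, at 80.7 TPM. Over the 4 libraries the range of Pan3, 59.9 to 80.7 TPM, overlapped that of Cnot8, 39.3 to 88.6 TPM, and the range of Cnot1, 6.22 to 8.16 TPM, overlapped that of Parn, 5.34 to 6.33 TPM. The other neighbours in the order did not overlap.

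Within each pair of related genes one member held most of the TPM. Cnot6l exceeded its paralog Cnot6 by 5.57- and 5.84-fold in the controls and by 5.87- and 5.64-fold in the irradiated libraries, so this ratio varied little between libraries. Cnot7 exceeded Cnot8 by 2.84- and 2.89-fold in the controls, by 2.81-fold in irradiated library 1 and by 1.98-fold in irradiated library 2. Pan3 exceeded Pan2, the catalytic subunit of the same enzyme, by 17.1- and 15.6-fold in the controls and by 15.7- and 20.1-fold in the irradiated libraries. The ratio of the adaptor Btg4 to Cnot7, which it binds, was 28.5 and 22.8 in the controls, 25.3 in irradiated library 1 and 10.9 in irradiated library 2. The ratios of Cnot7 to Cnot8 and of Btg4 to Cnot7 were lowest in irradiated library 2, by TPM and by counts. That of Pan3 to Pan2 was highest there by TPM but 14.7, the lowest, once the predicted Pan3 transcript XM_006504877.3 was left out, and by counts it was 35.4 beside 35.5 in control library 1.

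To ask whether irradiation altered the amount of these mRNAs, gene totals were compared between conditions with edgeR's quasi-likelihood test over all 12569 genes that passed its filter on low counts, and all 10 passed. A gene was called where its adjusted p lay below 0.05 and it differed by more than 2 log2 units. None of the 10 genes was called, and the smallest adjusted p was 0.708; over all genes 1 was called, or 0.00796%. At an unadjusted p below 0.05 the test again gave 0 of the 10, against 5.92% of all genes. DESeq2, edgeR's exact test and limma-voom called 0 of the 10 as well, with 0 at an unadjusted p below 0.05 in each. Leaving out irradiated library 1 gave an adjusted p below 0.05 to Btg4, Cnot8 and Pan3, all within the fold limit, and leaving out any other library gave it to none of the 10. In that fit, where the lone irradiated library 2 is assumed to vary like the controls, 34.3% of 13011 genes had an adjusted p below 0.05. The median log2 fold change of the 10 was −0.055, with a range from −0.41 to 0.41, beside 0.010 for all genes. By sign 8 were lower and 2 higher in the irradiated libraries, but Cnot1, Cnot6, Cnot6l, Pan2, Pan3 and Parn changed sign when libraries were scaled by size alone or compared in TPM. In CPM scaled with TMM factors, the irradiated libraries both lay above both controls for 2 genes, Cnot7 and Cnot8, against 22.1% of all genes, and both below for 0, against 19.9%. In TPM they lay above for 4 genes, Cnot8, Pan2, Pan3 and Parn, against 32.8% of all genes, and below for 0, against 5.9%, so only Cnot8 did so in both units. In pooled oocytes, fewer cells with an mRNA and less of it per cell cannot be told apart.

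**Figure D2:**
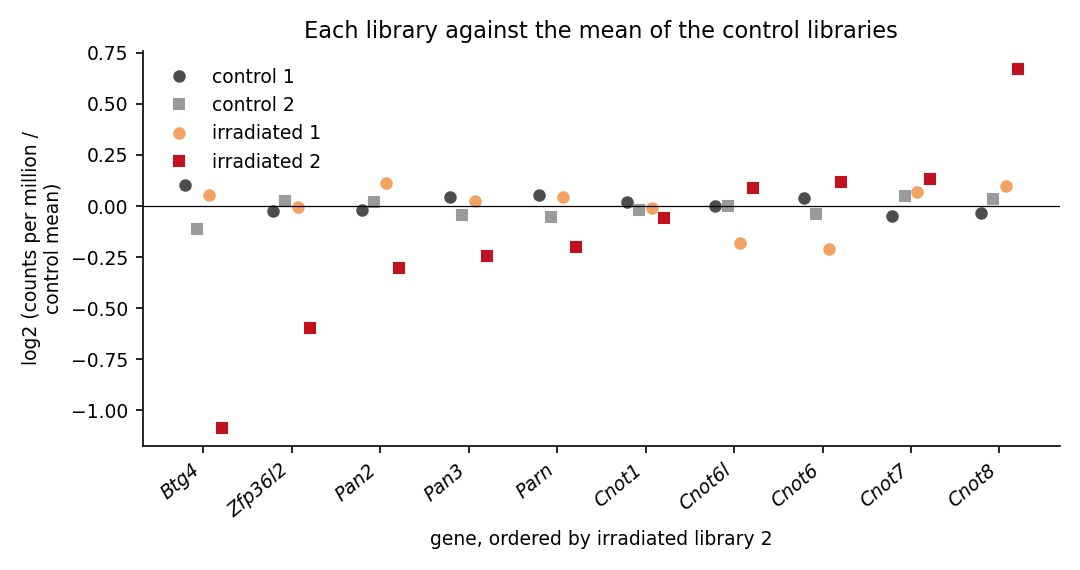
Log2 of the TMM-scaled CPM of each library over the mean of the 2 controls, for the 10 genes ordered by irradiated library 2; each point is 1 library. The controls and irradiated library 1 stay close to 0, while irradiated library 2 spreads from Btg4, at 0.471 of the control mean, to Cnot8, at 1.59 times it.

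Of the CAF1-type nucleases, Cnot8 lay above the controls in both irradiated libraries in CPM and in TPM, and Cnot7 in CPM alone. Cnot8, whose protein removes tail adenosines as an alternative to CNOT7, had 63.6 and 66.8 CPM in the controls and 69.8 and 104 CPM after irradiation. The CPM values did not overlap, but only irradiated library 2 lay clearly above the rest. The log2 fold change was 0.41 (SE 0.20), with an adjusted p of 0.708 in edgeR. Without irradiated library 2 it was 0.099, and without irradiated library 1 it was 0.66 (adjusted p 1.34e-11 in edgeR, with the lone irradiated library assumed to vary like the controls), so the size of the difference rests on irradiated library 2. Cnot7 had 212 and 226 CPM in the controls and 229 and 240 CPM after irradiation, a difference about as small as that between the controls. Its log2 fold change was 0.10 (SE 0.16, adjusted p 0.842 in edgeR).

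The CCR4-type nucleases and the scaffold gave overlapping values. Cnot6l, which encodes the more abundant mRNA of the CCR4-type pair, had 71.1 and 71.0 CPM in the controls and 62.7 and 75.7 CPM after irradiation. Its paralog Cnot6 had 8.26 and 7.82 CPM in the controls and 6.94 and 8.73 CPM after irradiation. In both genes irradiated library 1 was the lowest and irradiated library 2 the highest, so the controls lay between them. The log2 fold changes were −0.038 (SE 0.15) for Cnot6l and −0.035 (SE 0.17) for Cnot6. Cnot1, the scaffold on which the other subunits assemble, had 40.5 and 39.4 CPM in the controls and 39.8 and 38.4 CPM after irradiation. It was among the steadiest of the set, with a log2 fold change of −0.032 (SE 0.13, adjusted p 0.936 in edgeR).

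In CPM, the genes of the PAN2-PAN3 enzyme, which acts on long tails, and Parn were lowest in irradiated library 2, whereas in TPM Pan3 (80.7) and Parn (6.33) were highest there and Pan2 (4.02) lay above both controls. Pan2, the nuclease subunit, had 11.8 and 12.2 CPM in the controls and 13.0 and 9.73 CPM after irradiation. Pan3, the subunit that binds RNA and poly(A)-binding protein, had 420 and 395 CPM in the controls and 415 and 345 CPM after irradiation. Parn, which encodes a poly(A)-specific ribonuclease that also trims small RNAs, had 11.7 and 10.9 CPM in the controls and 11.7 and 9.83 CPM after irradiation. For all 3 in CPM, irradiated library 1 lay within or above the controls and irradiated library 2 lay below them. The log2 fold changes were −0.083 (SE 0.18) for Pan2, −0.10 (SE 0.19) for Pan3 and −0.072 (SE 0.15) for Parn, and each became positive without irradiated library 2, at 0.11, 0.028 and 0.047. Without irradiated library 1 they were −0.32, −0.25 and −0.21, and that of Pan3 had an adjusted p of 0.0397 in edgeR.

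Of the adaptors, Btg4 showed the widest spread. BTG4 joins the CAF1 subunit to translated maternal mRNAs. Btg4 had 3408 and 2931 CPM in the controls and 3292 and 1494 CPM after irradiation. Irradiated library 1 lay between the controls, and irradiated library 2 held 0.471 of their mean. The means were 3170 ± 338 CPM for the controls and 2393 ± 1271 CPM for the irradiated libraries (SD, n = 2 each), and the log2 fold change was −0.41 (SE 0.41, adjusted p 0.765 in edgeR). Without irradiated library 1 it was −1.10 with an adjusted p of 3.93e-15, a fit in which the lone irradiated library is assumed to vary like the controls, and without irradiated library 2 it was 0.055 with an adjusted p of 0.937. Zfp36l2, whose protein binds AU-rich elements and recruits CCR4-NOT, had 45 and 44 counts in the controls and 44 and 36 counts after irradiation. Its log2 fold change was −0.28 (SE 0.30) with all libraries and −0.0023 without irradiated library 2.

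**Figure D3:**
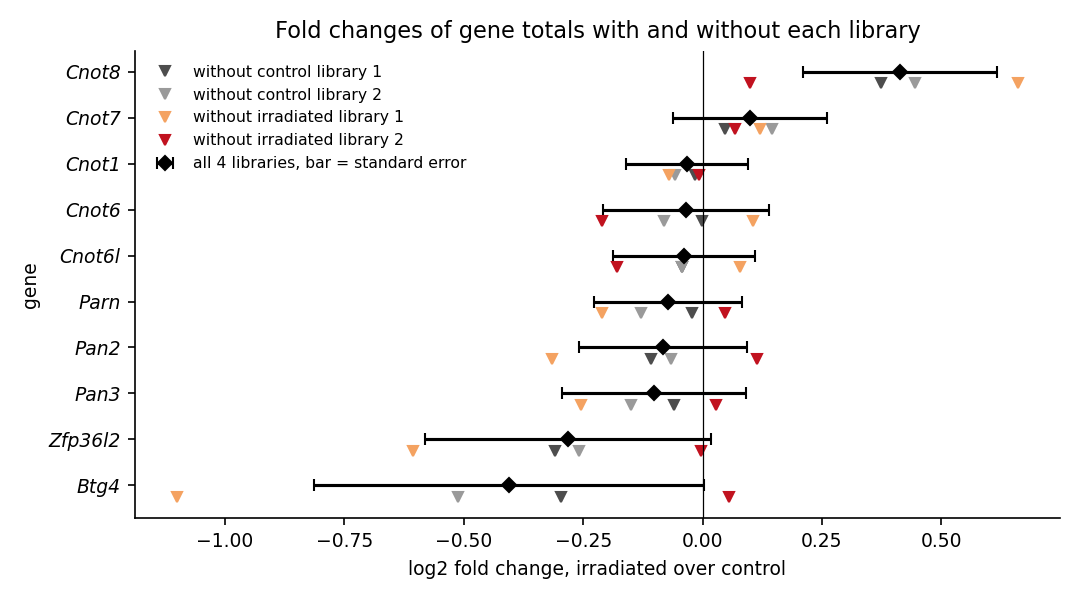
Log2 fold change of gene totals, irradiated over control, with its standard error (diamonds and bars) and the same value without each library in turn (triangles). Leaving out irradiated library 1 or 2 moves Btg4 between −1.10 and 0.055 and Cnot8 between 0.66 and 0.099, while the values of Cnot1 and Cnot7 stay close together.

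The division of each gene among its transcripts was examined next. RefSeq names 25 of the 53 transcripts as known (NM_) and 28 as predicted (XM_). Counts above 3 were present in all 4 libraries for 26 transcripts and in a single library for 8, and 1 transcript had none. Of the 41 that passed the filter, edgeR called 0, as it did over all 26645 transcripts tested, 0%. Unadjusted p-values below 0.05 were given to 5 of the 41, against 4.9% of all transcripts. These were XM_006504877.3 of Pan3, XM_006534871.2 of Cnot6l, NM_001205226.1 and XM_006530874.3 of Cnot1, and NM_011135.5 of Cnot7. DESeq2 and edgeR's exact test each called 2 of them, those of Pan3 and Cnot6l, and limma-voom called 0. Over all transcripts DESeq2 called 248 of the 28757 with an adjusted p, or 0.862%, and the exact test 247 of 26645, or 0.927%.

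Isoform usage, the question whether a transcript's share of its gene differed, was tested in 8 of the 10 genes, since Btg4 and Zfp36l2 each had a single tested transcript. Pan3 passed (diffSpliceDGE of edgeR, adjusted p 0.00295), and the other 7 each had an adjusted p of 1. Over all 6323 genes 0.253% passed, and 6.12% had an unadjusted p below 0.05, as did only Pan3 among the 8. The adjusted p was 0.355 without control library 1, 0.462 without control library 2, 0.0721 without irradiated library 2 and 0.981 with limma's diffSplice, so the call did not hold under these settings. Without irradiated library 1 it was 2.05e-06, and over all alternatives it ran from 2.05e-06 to 0.981.

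Among the 10 tested Pan3 transcripts, only the predicted XM_006504877.3 had a usage p below 0.05 in edgeR (adjusted p 0.000918). With it left out, a setting added after the data were seen, the usage test of Pan3 gave an adjusted p of 1. The transcript had 0 counts in both controls, 147 in irradiated library 1 and 1848 in irradiated library 2. These were 1.07% and 13.1% of the Pan3 counts, and the fold was at least 295-fold higher against a floor of 3 counts per library. That limit was 51.9-fold from irradiated library 1 alone and 538-fold from irradiated library 2 alone. In edgeR its adjusted p was 0.785, whereas DESeq2 gave 0.00726, the exact test 9.45e-05 and limma-voom 0.903. It carried 85.9 counts per TPM in irradiated library 2, against 196 to 227 for 7 other predicted Pan3 transcripts, and fewer counts per TPM go with a shorter effective length. With it, Pan3 stood at 63.4 and 80.7 TPM in irradiated libraries 1 and 2, and without it at 61.8 and 59.2 TPM, beside 59.86 and 60.01 TPM in the controls. The gap between irradiated library 2 and the controls in Pan3 TPM was therefore held by this transcript. This holds for TPM only. In unscaled counts, Pan3 without it had 12246 in irradiated library 2 and 13605 in irradiated library 1, against 14449 and 12829 in the controls. In CPM, Pan3 was lowest in irradiated library 2 even with this transcript, so the rest of Pan3 was not shown to be unchanged. The most abundant Pan3 transcript, XM_006504873.4, took 26.4% and 26.2% of the counts in the controls and 25.6% and 21.7% after irradiation.

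**Figure D4:**
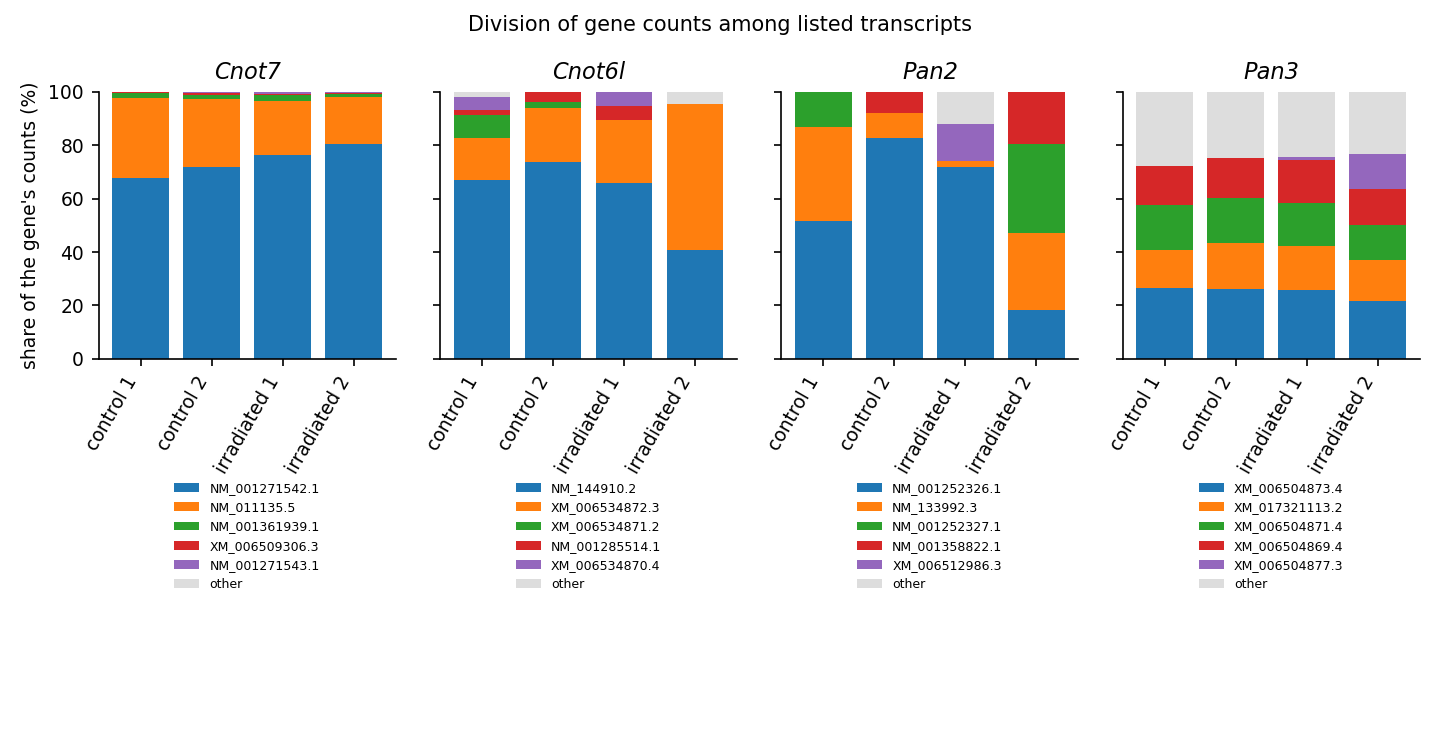
Share of each gene's estimated counts taken by its listed transcripts in each library, for Cnot7, Cnot6l, Pan2 and Pan3; grey is the sum of the transcripts not named. Pan3 is steady apart from XM_006504877.3, at 13.1% in irradiated library 2, while Cnot6l and Pan2 are divided differently in that library.

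Cnot7 was divided between transcripts with different first exons. NM_001271542.1 took 67.9% and 71.7% of the counts in the controls and 76.2% and 80.4% after irradiation, and NM_011135.5 took 30.0% and 25.6%, then 20.6% and 17.9%. The shares did not overlap between conditions, but how often this occurs among all transcripts was not computed. The usage test did not pass Cnot7 (diffSpliceDGE with Simes' method, unadjusted p 0.365). For the single transcripts, diffSpliceDGE gave an unadjusted usage p of 0.552 to NM_001271542.1 and 0.0731 to NM_011135.5. Both transcripts have the same coding exons, and their 5′ ends lie 4093 bases apart on the minus strand, so they differ in the untranslated first exon. NM_011135.5 had 2181 and 1887 counts in the controls and 1566 and 1759 after irradiation, a log2 fold change of −0.41 (SE 0.11), with an adjusted p of 0.780 in edgeR. NM_001271543.1, of the same gene, lacks 1 coding exon of 111 bases and had 0 to 37 counts per library.

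Cnot6l and Pan2 were divided differently in irradiated library 2. For Cnot6l, NM_144910.2 held 67.0%, 73.6% and 65.7% of the counts in the controls and irradiated library 1 and 40.7% in irradiated library 2, where XM_006534872.3 held 54.8%. Its predicted transcript XM_006534871.2 had 209 and 56 counts in the controls and 0 in irradiated libraries 1 and 2, which is at least 45.5-fold lower, with an adjusted p of 0.777 in edgeR, 0.000183 in DESeq2, 0.000628 in the exact test and 0.839 in limma-voom. The limit was 70.9-fold from control library 1 alone and 20.1-fold from control library 2 alone. For Pan2, NM_001252326.1 held 51.8% and 82.8% in the controls, 71.9% in irradiated library 1 and 18.3% in irradiated library 2, so the controls also differed widely. The usage test passed neither gene.

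The remaining genes had smaller or less certain shifts. In Cnot1, NM_001205226.1 had 32 and 27 counts in the controls and 0 after irradiation, at least 10.3-fold lower, with an adjusted p of 0.777 in edgeR. XM_006530874.3 of Cnot1 went the other way, with 0 counts in both controls and 109 and 13 after irradiation (adjusted p 0.864 in edgeR). Shares also differed between the controls, at 4.16% and 23.4% for XM_006530872.3. The main Cnot1 transcript, NM_178078.2, took 51.5% to 62.0% of the counts over the 4 libraries. Cnot8 came almost wholly from NM_026949.5, at 94.0% to 99.0%, and Btg4 from NM_019493.4, at 100% in each library. Counts of single transcripts carry the error of dividing reads among sequences that overlap, which gene totals largely avoid.

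Other genes that bind, lengthen, shorten or degrade tails were taken from a list of 82, of which 78 were listed and 75 passed the filter. None was called by edgeR, DESeq2 or limma-voom, and 3 had an unadjusted p below 0.05, against 5.92% of all genes. These were Pabpc4 (higher) and Dcp2 and Ddx6 (lower), Ddx6 being chosen after its values were seen. By sign 40 of the 75 were higher and 35 lower, the median log2 fold change was 0.027, and the values of the conditions did not overlap in CPM for 18 higher and 15 lower genes, against 22.1% and 19.9% of all genes.

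Among the other CCR4-NOT subunits, Cnot2, which helps position CCR4-NOT, had the highest mean TPM over the 4 libraries, at 52.1. Cnot9 followed at 49.97 TPM, although its mean CPM was higher than that of Cnot2 in each condition. Among the other deadenylases, Angel2 was highest, at 53.4 TPM. Cnot2 had 89.0 and 100 CPM in the controls and 89.6 and 93.2 CPM after irradiation. Cnot10 had 10.01 and 11.75 CPM in the controls and 13.7 and 12.0 CPM after irradiation, with a log2 fold change of 0.24. Angel2, of the CCR4-like nuclease family, had 105 CPM in each control and 111 and 124 CPM after irradiation. Toe1, a deadenylase of small nuclear RNAs, had a log2 fold change of 0.50 (SE 0.24), resting on 37 to 68 counts per library. For the BTG and TOB family, to which Btg4 belongs, the log2 fold changes were −0.12 for Tob1 and 0.34 for Btg2, and the family held 0 genes with an unadjusted p below 0.05 among 5 tested.

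Among recruiters and tail-binding proteins, Ythdf2, which reads m6A and recruits CCR4-NOT, had a log2 fold change of 0.066. Zfp36, the founding relative of Zfp36l2, had 11 and 15 counts in the controls and 17 and 51 after irradiation, with a log2 fold change of 1.20 (SE 0.51). Pabpn1l, a poly(A)-binding protein of the oocyte that works with BTG4, had 163 and 206 CPM in the controls, 176 CPM in irradiated library 1 and 364 CPM in irradiated library 2, so only that library stood out, as it did in Btg4 in the other direction. Pabpc4, a cytoplasmic poly(A)-binding protein, had 117 and 116 CPM in the controls and 144 and 160 CPM after irradiation, a log2 fold change of 0.38 (SE 0.15) with an adjusted p of 0.708 in edgeR.

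Among genes of tail extension and mRNA decay, Cpeb1, which controls cytoplasmic polyadenylation, had a log2 fold change of 0.090, and Sympk, a scaffold of the polyadenylation machinery, rested on 15 to 35 counts. Exosc7, an exosome subunit, and Tut7, which adds uridine to short tails, had log2 fold changes of −0.087 and −0.31. Dcp2, the decapping enzyme that acts after deadenylation, had 30.7 and 32.4 CPM in the controls and 26.5 and 16.9 CPM after irradiation, a log2 fold change of −0.54 (SE 0.21) with an adjusted p of 0.708 in edgeR. Lsm3, of the ring that binds deadenylated ends, had 259 and 238 CPM in the controls and 225 and 184 CPM after irradiation. Ddx6, a helicase that links CCR4-NOT to decapping, had 31.0 and 28.6 CPM in the controls and 20.6 and 25.4 CPM after irradiation. Of the 17 genes of decapping and decay from the cap end, 8 were higher and 9 lower. In CPM both irradiated libraries lay below both controls for 7 of the 17, against 19.9% of all genes. They lay above for 4, against 22.1% of all genes. Whether this group differs from the other genes was not tested.

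**Figure D5:**
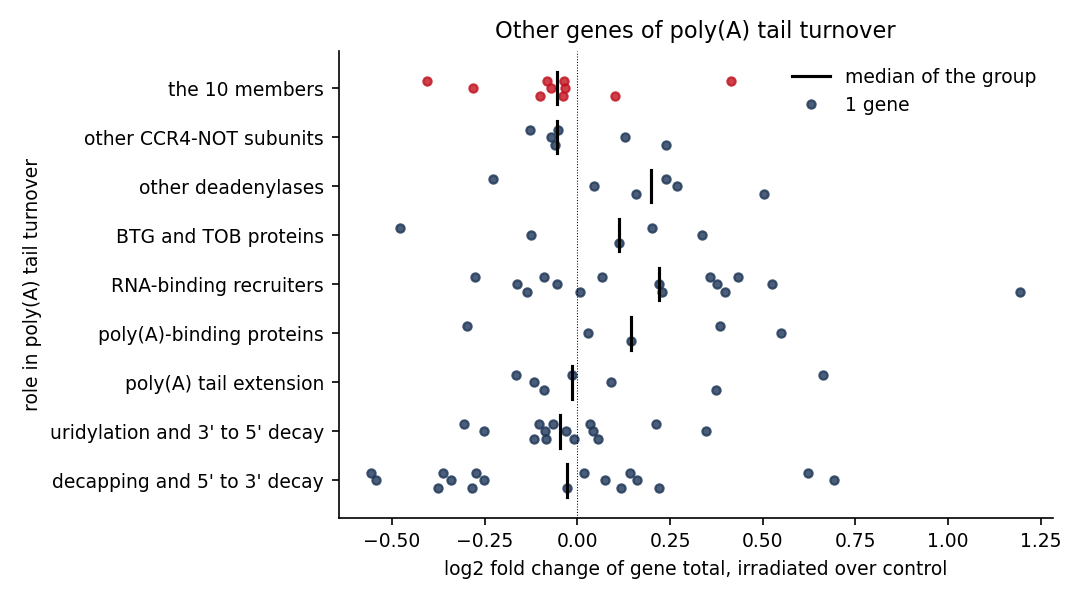
Log2 fold change of gene totals, irradiated over control, for the 10 deadenylation genes and 75 others by role; each point is 1 gene and each bar the median of its group. Most points of every group lie between −0.5 and 0.5, and Zfp36, at 1.20, is farthest from 0.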

How the data were processed

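Poly(A)-selected RNA of mouse GV oocytes was sequenced in 4 libraries (2 control, 2 irradiated), grouped by the sample titles. Paired-end sequencing gave 100 bp reads, for which the authors used Bowtie2 and GRCm38. The values were deposited as 1 estimated count per RefSeq transcript and library, without scaling. The authors also deposited TPM values, scaled for transcript length and library total. The submitters' processing notes name HISAT2, Bowtie2, RSEM and mm10, without roles or versions, and whether reads were counted by strand is not given in the sources used here. A further 10 columns (4 of FPKM and 6 of averages) were not used.

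Gene symbols were taken from RefSeq by gene ID (17323 of 17374 matched). Estimated counts were summed per gene, rounded and compared by edgeR 4.0.16 under R 4.3.3 (filterByExpr, min.count 10; TMM factors 0.923, 0.975, 0.937 and 1.19, glmQLFit, glmQLFTest, two-sided), with Benjamini-Hochberg adjustment over all features. Transcripts were tested likewise and isoform usage with diffSpliceDGE and Simes' method. SE is the log2 fold change over the square root of F. With 2 libraries against 2, an exact permutation test cannot go below p = 0.333. DESeq2 1.42.0, limma 3.58.1 and other scalings, filters and units were tried as alternatives, with pseudocounts of 1 and 0.1 for TPM. Figures were drawn with matplotlib 3.10.9.

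The genes, lists and tests were chosen with earlier results of these data known. Named in the text are all 10 genes, and in each other group the most abundant gene and that with the smallest unadjusted p. For the 10 genes other than Cnot6, Parn and Zfp36l2, the most abundant transcript and that with the smallest p are named. Also named is any transcript with at most 3 counts in both libraries of one condition and many more in both of the other. Transcripts with counts in a single library were not named on that ground. On simulated counts with 3 log2 units of change, gene totals (12421 genes) recovered 200 of 200 changed genes with 3 false calls and transcripts (23672) 134 of 200 with 1 false call. The changed genes and transcripts were drawn from those with higher mean counts, so these figures do not cover low counts such as those of Zfp36l2. All simulated libraries varied alike, so none stood apart as irradiated library 2 did in the data. The log2 fold changes of the 10 genes ran only from −0.41 to 0.41. The recovery of changes of that size was not simulated. For the usage test (5674 genes), the irradiated levels of the most abundant transcript and the next were swapped in 200 genes. It recovered 61 of the 200 with 1 false call.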

Additional observations from a re-analysis of the deposited data

How the results depend on the processing

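None of the 10 gene totals was called under any alternative. Library size alone moved the median log2 fold change of all genes from 0.010 to 0.172, and log2(TPM + 1) and log2(TPM + 0.1) moved it to 0.145 and 0.214. With these 3 settings, in that order, the log2 fold change turned positive for Cnot1 (0.126, 0.168, 0.189), Cnot6 (0.144, 0.137, 0.181), Cnot6l (0.138, 0.187, 0.199), Pan2 (0.0552, 0.107, 0.131), Pan3 (0.0451, 0.252, 0.255) and Parn (0.0774, 0.130, 0.150). When 1 library was left out in turn, it ran from −0.211 to 0.106 for Cnot6 and from −0.179 to 0.0785 for Cnot6l, positive without irradiated library 1. It ran from −0.316 to 0.113 for Pan2, −0.254 to 0.0275 for Pan3, −0.211 to 0.0473 for Parn and −1.10 to 0.0552 for Btg4, positive without irradiated library 2. DESeq2 and edgeR's exact test each called 2 transcripts of the 10 genes (248 and 247 over all transcripts) where the quasi-likelihood test called 0. The count of genes with altered isoform usage was 1, 0 with limma's diffSplice, 0 without XM_006504877.3 of Pan3 (a setting added after the data were seen) and 0 to 1 when 1 library was left out. The cause of these changes was not tested. With the replicate number as a block, 0 of the 10 gene totals was called (smallest adjusted p 0.482 in edgeR), and over all genes 7 were called in place of 1. Pan3 kept its usage call (adjusted p 0.00343 in diffSpliceDGE), and over all genes 3 passed the usage test in place of 16. The deviations of same-numbered libraries correlated at 0.177, and with 2 pairs the numbers were not taken to pair the libraries. Over all genes, DESeq2 called 4, the exact test 10, limma-voom 0, the fit without a filter 3, and the fits without 1 library 16 to 84. Low counts limit Zfp36l2, Zfp36 and Sympk, and 2 libraries per condition limit every comparison.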
